A study of Homo sapiens with 8 samples.

Results

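Intergenic stretches of chromatin that carry H3K27ac within 100 kb of a gene were examined in A549, an established line of human lung adenocarcinoma in which the transcription factor NRF2 is persistently active. The regions were chosen by their calls and position. Overlapping H3K27ac peaks of all 6 libraries were merged, and a merged region was kept when it was under 10 kb wide, was called in at least 3 libraries with both groups among them, overlapped no annotated gene and began less than 100 kb from the nearest start of a protein-coding transcript. This rule kept 3838 of 49186 merged regions, 7.8% of the total. They are called intergenic enhancer regions below by their mark and position only, since enhancer activity itself was not measured.

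Chromatin immunoprecipitation and sequencing mapped H3K27ac in 3 libraries from A549 cells that had received control siRNA and 3 from cells that had received NRF2 siRNA. NRF2 siRNA 28 was used in replicate 1 and NRF2 siRNA 30 in replicates 2 and 3. The study describes the replicates as biological, from independent experiments, while the labels do not name separate cultures. The 2 input samples were not analysed here. The control siRNA lists held 27941, 34747 and 41571 peaks and the NRF2 siRNA lists 23885, 34986 and 39108 peaks. Peak names hold a flow cell identifier in replicates 2 and 3 and none in replicate 1, which was therefore treated as its own batch. By the read totals the study states, both libraries of replicate 1 were also far shallower than the other 4. Since siRNA 28 was used in that replicate alone, siRNA, batch and depth cannot be told apart. The starts of the epithelial genes KRT8, KRT18, KRT7, EPCAM and CDH1 were called in 6 of 6 libraries, and those of PTPRC, CD3E, PECAM1, GFAP, SFTPC and MYOD1, markers of other cells, in 0. The start of the liver gene ALB was called in 2 NRF2 siRNA libraries. The start of NFE2L2, the gene of NRF2, was called in 6 libraries with a change of -0.20 on the normal score scale explained below, which does not check the knockdown because an siRNA acts on the transcript.

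H3K27ac is laid down by the acetyltransferases CBP and p300 and marks active promoters and enhancers. Enhancers are stretches of DNA, often far from the gene they act on, where transcription factors gather coactivators. NRF2 escapes degradation in A549 cells, which carry a KEAP1 mutation, and binds antioxidant response elements together with small MAF proteins. The full element contains the shorter AP-1 site bound by FOS and JUN proteins, and an enhancer may hold either or both.

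Sequences are shown for the regions whose change was largest and which held the antioxidant response element TGACTCAGC or TGAGTCAGC, and for the region upstream of NOTCH3. All are on the plus strand of GRCh37, 5′ to 3′, and each is named after the gene with the nearest coding start. The element, on either strand, is in capitals in the first 5 lines. The windows lie at chr2:241327193-241327261 (GPC1), chr2:214116453-214116521 (SPAG16), chr9:90493519-90493587 (SPATA31E1), chr4:75608165-75608233 (BTC) and chr16:88366883-88366937 (ZNF469). In the NOTCH3 window, at chr19:15321227-15321302, capitals mark 2 overlapping sites of the looser core TGACNNNGC on either strand, and the last 9 capitals spell the full element. In the LHX1 and FST windows, at chr17:35208739-35208805 and chr5:52702692-52702758, capitals mark the FOXA motif TGTTTAC read on the other strand. These 2 are the largest rises with that motif in their central 1000 bases. The ZNF469, LHX1 and FST windows were chosen after the values were seen.
GPC1: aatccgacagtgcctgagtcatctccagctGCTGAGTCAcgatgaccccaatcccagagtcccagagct
SPAG16: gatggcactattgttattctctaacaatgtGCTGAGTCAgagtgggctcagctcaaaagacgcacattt
SPATA31E1: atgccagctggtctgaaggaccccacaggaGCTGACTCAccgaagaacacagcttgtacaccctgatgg
BTC: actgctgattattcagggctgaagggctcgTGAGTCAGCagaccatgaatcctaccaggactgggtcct
ZNF469: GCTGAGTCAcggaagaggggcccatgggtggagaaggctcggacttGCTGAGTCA
NOTCH3: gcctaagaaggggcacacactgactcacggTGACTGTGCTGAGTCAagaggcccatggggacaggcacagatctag
LHX1: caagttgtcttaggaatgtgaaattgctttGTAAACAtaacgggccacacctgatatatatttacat
FST: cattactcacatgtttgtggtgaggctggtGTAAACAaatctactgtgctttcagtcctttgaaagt

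The 3838 regions covered 11.3 Mb, with a median width of 2386 bp and a greatest width of 9970 bp. The median distance to the nearest coding start was 27326 bp, and 2709 regions (70.6%) lay upstream of that start. They were nearest to 2602 genes, of which 1811 had 1 region and 276 had 3 or more. Their bases were 44.5% G or C in the median region, against 60.2% for the 9252 regions that hold a coding start, and the median ratio of observed to expected CpG was 0.216 against 0.745. Among the 6355 regions within introns of coding genes the medians were 41.9% and 0.194, and among the 2156 intergenic regions beyond 100 kb they were 39.7% and 0.168.

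Whether a library called a region varied more with the replicate number than with the siRNA. Control siRNA libraries 1 to 3 called 66.1, 89.7 and 96.8% of the 3838 regions, and NRF2 siRNA libraries 51.3, 90.5 and 98.4%. The means were 84.2% ± 16.1 and 80% ± 25.2 (SD, n = 3 each), a difference smaller than the spread between replicates. Within pairs of the same number, NRF2 siRNA minus control siRNA was -14.9, 0.782 and 1.54 percentage points. Both libraries of replicate 1, the shallower ones with the shortest lists, called the fewest regions, and the part of depth and list length in the shares was not tested. Since calls chose the regions, these shares are given as a description. A total of 1607 regions (41.9%) were called in all 6 libraries, and 2231 were not called by at least 1.

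Regions were placed in each library by the percentile of their highest peak, the percent of peaks in that library's own list with the same or a lower fold enrichment. The median over called regions was 47.7, 45.4 and 51.4 in control siRNA libraries and 47.8, 47.3 and 50.7 in NRF2 siRNA libraries. The means of 48.2 ± 3.03 and 48.6 ± 1.83 (SD, n = 3 each) differed by less than the spread between replicates. The typical intergenic enhancer region thus stood near the middle of every list, while the median region holding a coding start stood between percentiles 57.3 and 73.2.

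The share called was similar across distance. In the 861 regions under 10 kb from a start, control siRNA libraries called 84.3% ± 16.2 and NRF2 siRNA libraries 79.4% ± 25.4. At 10 to 25 kb (926 regions) the shares were 85.1% ± 14.9 and 80.4% ± 24.5, and at 25 to 50 kb (1036 regions) 84.3% ± 15.6 and 79.5% ± 25.7. At 50 to 100 kb (1015 regions) they were 83.2% ± 17.5 and 80.8% ± 25.3 (SD, n = 3 throughout). All 4 differences were smaller than the spread between replicates. The mean of the library median percentiles was 47.4 ± 3.59 in control siRNA and 46.5 ± 2.11 in NRF2 siRNA libraries under 10 kb. It was 51.1 ± 1.63 and 51.7 ± 1.79 at 10 to 25 kb, 47.6 ± 3.48 and 48.4 ± 1.86 at 25 to 50 kb and 47.1 ± 3.42 and 47.8 ± 4.32 at 50 to 100 kb (SD, n = 3 each). The 10 to 25 kb class had the highest median percentile of the 4 classes in each of the 6 libraries, and in every class the groups differed by less than the spread between replicates. The regions under 10 kb lay upstream of their start in 86.9% of cases and those at 50 to 100 kb in 60.1%.

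**Figure D1:**
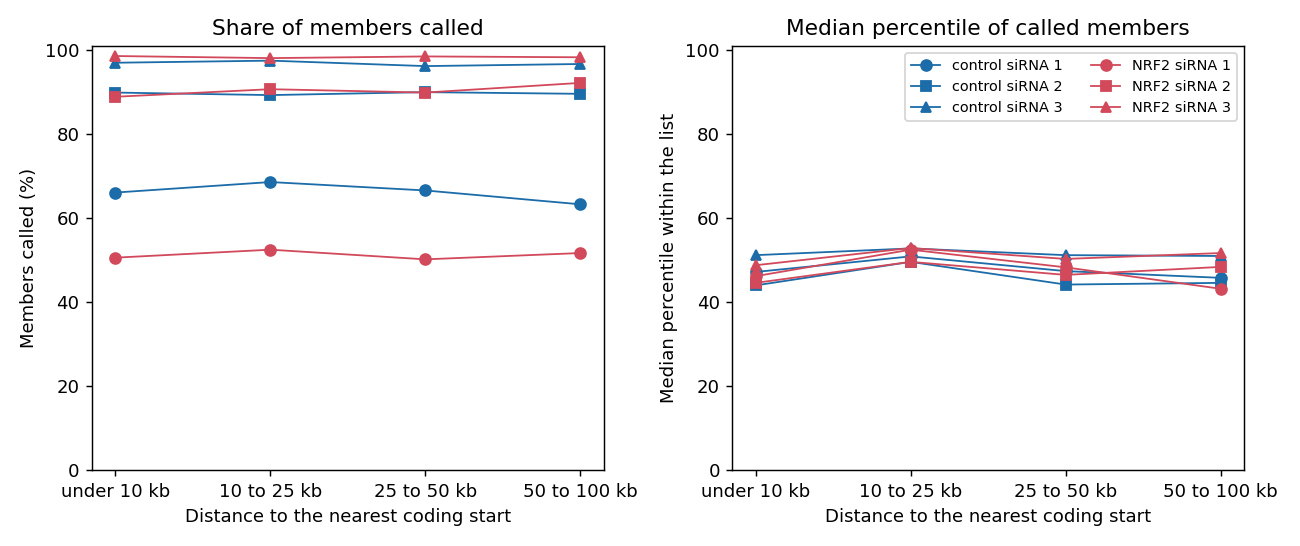
Left, the share of intergenic enhancer regions called in each library (percent) against 4 classes of distance to the nearest coding start; right, the median percentile of the called regions within the list of that library. Each line is 1 library, and the shares run from 50.2% in NRF2 siRNA library 1 to 98.6% in NRF2 siRNA library 3 with almost level lines across distance.

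To ask which regions gained or lost rank when NRF2 was knocked down, ranks within each library were turned into normal scores, the quantiles of a standard normal distribution that match those ranks, and compared with limma over all 32673 regions called in at least 3 libraries. A change of 1 is thus 1 standard deviation of the ranking, and regions without a call in a library shared the lowest rank there. Of the 3838 intergenic enhancer regions, 126 (3.28%) were lower and 76 (1.98%) higher with NRF2 siRNA at a limma adjusted p under 0.05, against 3.39% and 2.01% of all regions tested. Among the 31147 tested regions called in both groups, as the rule asks, the shares were 2.17% lower and 1.68% higher. The 202 called regions moved the same way in all 3 pairs. At an unadjusted p under 0.05 in limma 404 of the 3838 were lower and 581 higher. Over the 32649 tested regions on assembled chromosomes 3484 were lower and 3875 higher.

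With the replicate number as a block, which the numbers support, 228 regions (5.94%) were lower and 258 (6.72%) higher, against 6.62% and 5.71% of all regions tested and 4.10% and 4.72% of those called in both groups. These calls held all 126 and all 76 of the fit without the block. The side with more calls thus depended on the fit, and with lists of equal length there were 102 lower and 128 higher of 2238 regions. The number of calls also changed when 1 library was left out, and this held over all regions tested. Each such fit has fewer libraries, so a lost call does not show that it rested on the library left out. With control siRNA replicate 2 or 3 left out, 0 of 30075 and 0 of 28588 tested regions passed in either direction. In limma 372 and 371 intergenic enhancer regions were then lower and 370 and 316 higher at an unadjusted p under 0.05. Without control siRNA replicate 1 there were 45 lower and 10 higher, against 221 and 202 of all regions tested. Without NRF2 siRNA replicate 2 there were 17 and 1 (89 and 3 of all), and without NRF2 siRNA replicate 3 there were 42 and 24 (353 and 131). Without NRF2 siRNA replicate 1 there were 147 and 133 (1585 and 741). Of the 34 called regions that the naming rule picks, 11 kept their call in 4 of these 6 fits. No more than 4 was possible, since the fits without control siRNA replicate 2 or 3 called no region anywhere.

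The falls reached further than the rises. The 126 lower regions had a median change of -1.30 and ran from -3.01 to -0.84, and 9 of them changed by 2 or more. The 76 higher regions had a median change of 1.15 and ran from 0.85 to 1.97. Lower regions went from a median percentile of 73.4 in control siRNA to 23.5 in NRF2 siRNA libraries, and higher regions from 27.1 to 63.3. These values come from the contrast that made the calls and are a description. Over all 3838 regions the median change was 0.08, with 0.25, 0.08 and 0.12 in pairs 1, 2 and 3. It was 0.02 over all regions tested, 0.13 in intronic regions, 0.19 in intergenic regions beyond 100 kb and -0.06 in regions holding a coding start. The 0.25 of pair 1 is the value shared by all regions that neither library of replicate 1 called, a product of tied ranks.

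Among the 1607 regions called in all 6 libraries, where no region has a tied rank of its own, 32 (1.99%) were lower and 29 (1.80%) higher. Their scores still came from ranks over all regions tested, so the number of uncalled regions in each library entered them. Ranked only among regions called in all 6 libraries, 50 of the 1607 were lower and 53 higher, against 369 and 341 of 16845. In the ranks over all regions tested, every NRF2 siRNA score lay below every control siRNA score in 179 of the 1607. In 319 every one lay above, and these are 11.1% and 19.9%. Of all 16845 regions called in 6 libraries, 12.1% and 14.6% were separated in this way. The other calls came from regions with uneven libraries. Of the 133 regions called in 3 control siRNA libraries and 1 NRF2 siRNA library, 26 were lower, and of the 649 called in 3 and 2, 68 were lower. Of the 230 regions called in 2 control siRNA and 3 NRF2 siRNA libraries, 41 were higher, and of the 61 called in 1 and 3, 6 were higher. A library without a call gave the lowest rank, so the pattern of calls largely set the direction in these regions.

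**Figure D2:**
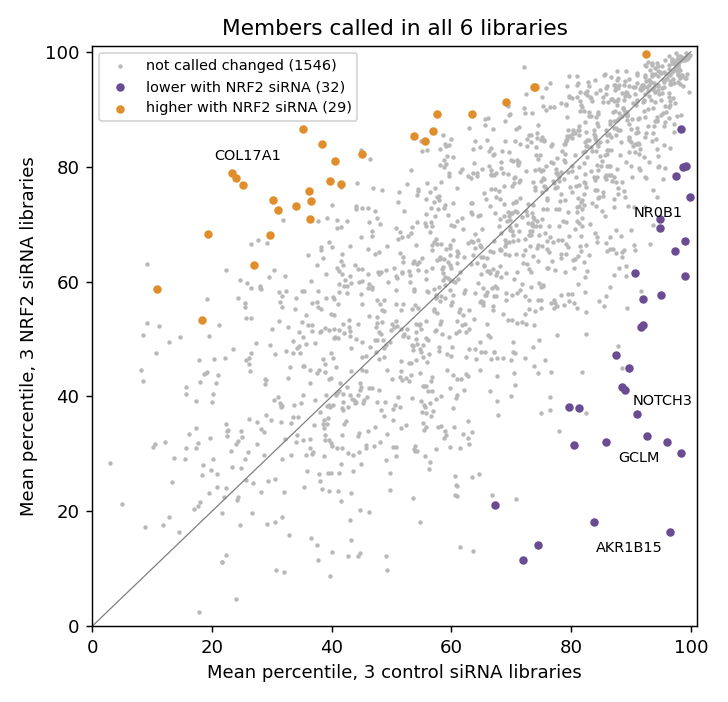
Mean percentile within the list over 3 control siRNA libraries (horizontal) against 3 NRF2 siRNA libraries (vertical) for the 1607 intergenic enhancer regions called in all 6 libraries, each point 1 region. The 32 lower regions lie far below the diagonal, mostly at high control percentiles, and the 29 higher regions above it, with the rest spread around the line.

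By distance, 28 regions under 10 kb were lower and 13 higher, with a median change of 0.03. At 10 to 25 kb there were 30 and 18 (median 0.09), at 25 to 50 kb 29 and 17 (median 0.07) and at 50 to 100 kb 39 and 28 (median 0.11). The lower share thus ran from 2.80 to 3.84% and the higher share from 1.51 to 2.76%. In all 4 classes more regions were lower than higher, whereas with the replicate block more were higher in the 3 classes beyond 10 kb (56 and 61, 58 and 63, 59 and 92) and more were lower under 10 kb (55 and 42).

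The largest fall was at chr2:241324161-241330486, 44594 bp upstream of GPC1, which encodes glypican 1, a heparan sulfate proteoglycan of the cell surface. It stood at percentiles 97.6, 98.5 and 97.0 of the control siRNA lists and at 11.5 and 12 of NRF2 siRNA lists 1 and 3, and NRF2 siRNA library 2 did not call it. The region went from the top of every control list to near the bottom or out of the NRF2 siRNA lists. Its score changed by -3.01 (SE 0.36, limma adjusted p = 0.00692), with -2.16, -3.77 and -3.09 in the 3 pairs. Next came a region at chr17:41915122-41920673, 3843 bp upstream of CD300LG, a membrane protein of the CD300 family, with percentiles of 99.6, 98.2 and 97.5 in control siRNA and 39.2, 25.5 and 25.5 in NRF2 siRNA lists. All NRF2 siRNA values lay far below the control values, and the change was -2.64 (SE 0.35, limma adjusted p = 0.00914).

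Aldo-keto reductases reduce aldehydes and ketones with NADPH, and their genes are classical targets of NRF2. Of 5 regions at the AKR1B cluster on chromosome 7, 3 were lower. A region at chr7:134274097-134282547, 24173 bp downstream of the start of AKR1B15, had percentiles of 98.3, 98.9 and 92.6 in control siRNA and 2.07, 17.1 and 30.1 in NRF2 siRNA lists. The change was -2.54 (SE 0.30, limma adjusted p = 0.00677). The neighbouring region at chr7:134284929-134291869 fell by 1.20 (limma adjusted p = 0.0218). The region 9880 bp upstream of AKR1B10 stood at 72.3, 79.9 and 63.7 in control siRNA and 3.57, 19 and 11.9 in NRF2 siRNA lists and fell by 1.34 (SE 0.32, limma adjusted p = 0.0465). In the same cluster, 2 regions upstream of AKR1B1 changed by 0.60 and 0.09 without passing the threshold (limma adjusted p = 0.215 and 0.856). In the 3 lower regions all control values exceeded all NRF2 siRNA values where the region was called, which their calls from the same values nearly fix. In the other 2 the groups overlapped. The 3.39% of all tested regions that were lower is the background to the 3 calls.

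Of the genes of glutathione synthesis, GCLM, the modifier subunit of glutamate-cysteine ligase, had a region at chr1:94425572-94432497, 50560 bp upstream of its start. The percentiles were 97.2, 96.4 and 94.3 in control siRNA and 10.3, 44.1 and 41.8 in NRF2 siRNA lists, with a wide gap between the groups. The change was -1.99 (SE 0.22, limma adjusted p = 0.00637), with -2.13, -1.93 and -1.90 in the pairs. NR0B1 encodes DAX1, an orphan nuclear receptor. The region at chrX:30298066-30305334, 21271 bp downstream of the NR0B1 start, stood at 99.9, 99.7 and 99.8 in control siRNA and 57.5, 81.1 and 85.4 in NRF2 siRNA lists. It remained in the upper part of the NRF2 siRNA lists but left the extreme top, and fell by 2.08 (SE 0.21, limma adjusted p = 0.00628).

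The NOTCH3 receptor takes part in signalling between neighbouring cells, and the study examined it as a downstream effector of NRF2. From these same 6 libraries, and in separate ChIP assays, it reported that H3K27ac upstream of NOTCH3 fell with NRF2 siRNA. The direction here was thus known beforehand. The region at chr19:15320011-15323763, 8205 bp upstream of NOTCH3, was called in all 6 libraries with percentiles of 92.8, 87.9 and 84.6 in control siRNA and 36.1, 50.3 and 38.4 in NRF2 siRNA lists, which average 88.4 ± 4.14 and 41.6 ± 7.60 (SD, n = 3 each). All 3 control values exceeded all 3 NRF2 siRNA values, which its call as lower nearly fixes. Its score fell by 1.30 (SE 0.27, limma adjusted p = 0.0309, and 0.00791 with the replicate block). The limma adjusted p ran from 0.0237 to 0.133 when 1 library was left out and was under 0.05 in 1 of the 6 fits. The fits without control siRNA replicate 2 or 3 called no region anywhere.

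The remaining large falls were at regions where replicate 1 with NRF2 siRNA made no call. EEIG1 had a region 19408 bp upstream of its start at percentiles 84.8, 93.1 and 90.8 in control siRNA and 11.1 and 9.33 in NRF2 siRNA lists 2 and 3, with a change of -2.35 (limma adjusted p = 0.00628). The region 29359 bp upstream of IQGAP2, a scaffold protein of the cytoskeleton, stood at 81.5, 92.3 and 91.4 against 10.9 and 21.0, with a change of -2.18 (limma adjusted p = 0.00628). At BTC, the EGF receptor ligand betacellulin, a region 86271 bp downstream of the start stood at 86.2, 95.7 and 96.6 against 33.4 and 51.7, with a change of -2.02 (limma adjusted p = 0.00768). Regions near SPAG16, SPATA31E1 and RDX, the last encoding the membrane-cytoskeleton linker radixin, changed by -2.13, -2.05 and -1.99 (limma adjusted p from 0.00628 to 0.00954). All control percentiles of these 3 lay between 78.7 and 90.4, and all NRF2 siRNA percentiles at or below 26.8 where the region was called. Among regions called in all 6 libraries, that 12437 bp upstream of TBC1D14, a regulator of Rab GTPases, stood at 99.4, 98.4 and 99.3 in control siRNA and 40.5, 66.4 and 75.8 in NRF2 siRNA lists and changed by -1.94 (limma adjusted p = 0.00628).

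The regions near CAT and GSTA2 were named after their values were seen. The region 9958 bp upstream of CAT, the gene of the hydrogen peroxide enzyme catalase, stood at 95.1, 91.0 and 92.2 in control siRNA and 8.62, 30.9 and 59.8 in NRF2 siRNA lists and fell by 1.64 (limma adjusted p = 0.0100). The region 35307 bp from GSTA2, a glutathione transferase, stood at 88.2, 87.5 and 82.5 in control siRNA and at 27.0 and 39.5 in NRF2 siRNA lists 2 and 3, and fell by 1.71 (limma adjusted p = 0.00914). Both stood high in every control list and were lower, or not called, in every NRF2 siRNA list.

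The largest rise was at KRT19, an epithelial keratin. The region at chr17:39685435-39687668, 875 bp upstream of its start, was not called in control siRNA library 1 and stood at percentiles 10.4 and 8.58 in control siRNA lists 2 and 3, against 66.5, 84.3 and 73.6 in NRF2 siRNA lists. It went from the bottom of the control lists to the upper part of the NRF2 siRNA lists. Its score rose by 1.97 (SE 0.24, limma adjusted p = 0.00677), with 1.86, 2.01 and 2.04 in the pairs. With 1 library left out, the limma adjusted p ran from 0.00717 to 0.0698.

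Most of the other large rises also had no call in control siRNA library 1. The region 58652 bp downstream of the IGF2 start, a fetal growth factor, stood at 45.9 and 24.8 in control siRNA lists 2 and 3 and at 74.1, 86.3 and 85.0 in NRF2 siRNA lists, a change of 1.73 (limma adjusted p = 0.0140). P2RY2 encodes a receptor for extracellular nucleotides. Of its 2 regions, 1 was called in a single control siRNA library, at percentile 13.1, and stood at 51.4, 60.2 and 59.8 in NRF2 siRNA lists, and the other stood at 6.94, 14.5 and 10.9 against 58.4, 64.3 and 53.3. They rose by 1.66 and 1.24 (limma adjusted p = 0.0241 and 0.0468). The first lost its call in all 6 fits with 1 library left out (limma adjusted p from 0.0544 to 0.109). Regions near LIPF, LHX1, ATP10A, AKAP7, ANTXR2, TEX101 and ACP6 rose by 1.55 to 1.64. LIPF encodes gastric lipase, LHX1 a homeobox factor, AKAP7 an anchor of protein kinase A and ANTXR2 a cell-surface receptor for collagens. The groups of these 7 did not overlap, which their choice as large rises alike in all pairs nearly fixes.

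Among regions called in all 6 libraries, where no rise rests on a missing call, COL17A1, the collagen of hemidesmosomes, had a region 6501 bp upstream of its start at 3.28, 42.6 and 24.3 in control siRNA and 84.1, 81.6 and 70.9 in NRF2 siRNA lists, a change of 1.45 (SE 0.30, limma adjusted p = 0.0289). FST encodes the activin inhibitor follistatin, and its region 72278 bp upstream stood at 22.2, 34.7 and 18.6 against 64.2, 86.1 and 80.1, a change of 1.46 (SE 0.29, limma adjusted p = 0.0256). A second FST region rose by 0.99 (limma adjusted p = 0.0461). Named after their values were seen, the regions nearest to CD44 and ITGA3, receptors for hyaluronan and laminin, rose by 1.49 and 1.23 (limma adjusted p = 0.0108 and 0.0368), and the CD44 region was not called in control siRNA library 1. The ITGA3 region stood at 83.3, 96.9 and 97.5 in control siRNA and 99.2, 99.9 and 99.8 in NRF2 siRNA lists, so it was high in both groups. Regions near SIGLEC15 and ZFAND6 rose by 1.41 and 1.42 (limma adjusted p = 0.0193 and 0.0105).

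**Figure D3:**
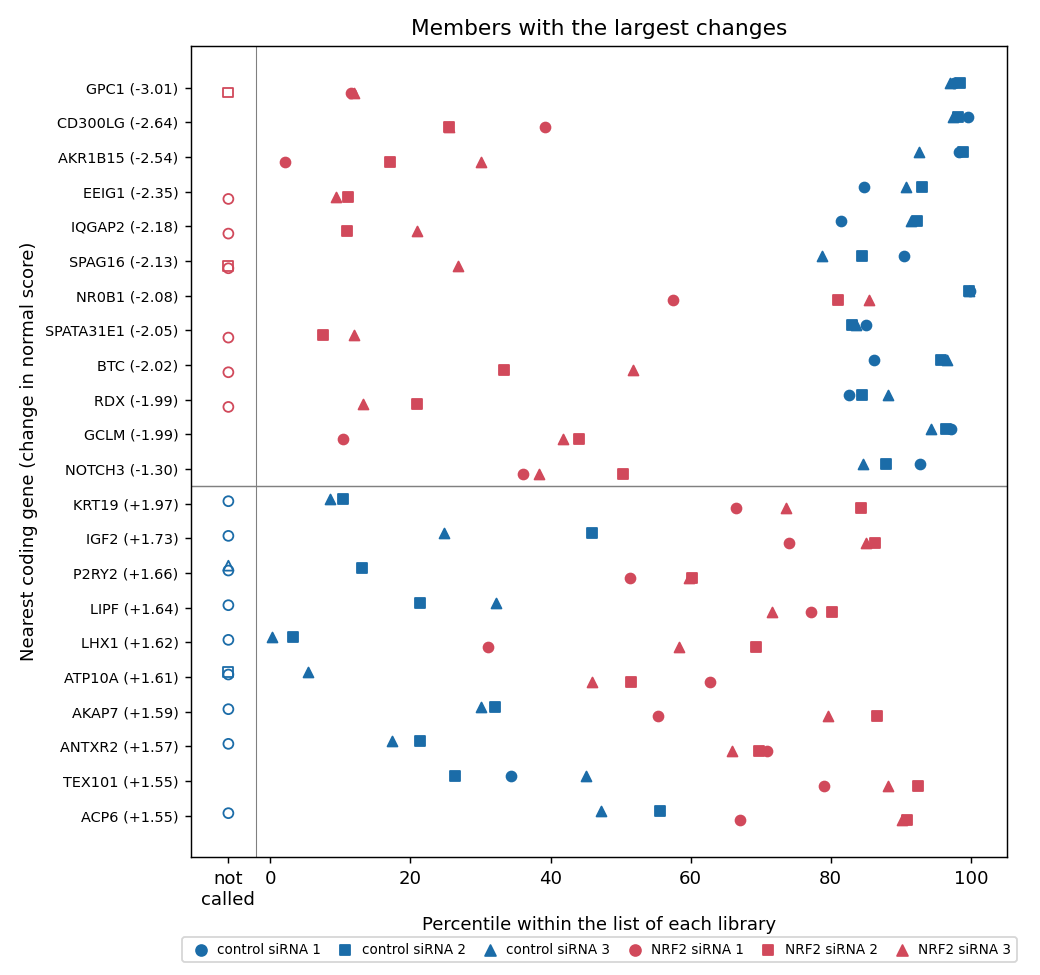
Percentile within the list of each library (horizontal) for the 10 largest falls, GCLM and NOTCH3 (above the line) and the 10 largest rises (below it), with the nearest gene and the change in normal score at the left; open symbols mark libraries that did not call the region. In every row the 3 control siRNA symbols and the 3 NRF2 siRNA symbols are separated, which the choice of rows by called changes nearly fixes. Libraries without a call are drawn below all percentiles.

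Gene lists give the wider view, each region counting for its nearest coding start. That start need not be the gene the region acts on. The lists hold few regions each, and 3.28% and 1.98% of all intergenic enhancer regions were lower and higher. Of 48 canonical NRF2 genes, 11 were nearest to 15 regions, of which 4 were lower and 0 higher, with a median change of -0.40 and 11 of 15 below 0. At an unadjusted p under 0.05 in limma 5 were lower and 1 higher. The 4 were those at NR0B1, GCLM, AKR1B10 and ALDH1A1. The study uses NR0B1 in its score of NRF2 activity, yet describes the H3K27ac there as particular to lung cancer cells with active NRF2. The ALDH1A1 region, 92761 bp from the start of this aldehyde dehydrogenase, stood at 98.6, 98.2 and 98.5 in control siRNA and 91.7, 81.4 and 86.6 in NRF2 siRNA lists and fell by 0.98 (limma adjusted p = 0.0473). The highest value of the list was the 0.60 at AKR1B1. Regions at HMOX1, TXN and FTH1, the genes of heme oxygenase, thioredoxin and ferritin heavy chain, changed by 0.09, -0.08, -0.08 and -0.40 without passing the threshold (limma adjusted p from 0.313 to 0.925, FTH1 having 2 regions).

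The NRF2 circuit of KEAP1, BACH and MAF genes had 1 region, near BACH2, with a change of 0.13 (limma adjusted p = 0.834). A further list held genes that the study picked as NRF2 effectors in lung cancer lines with active NRF2. They were picked because their transcripts fell after NRF2 knockdown in such lines, A549 included, so their direction is not independent evidence. The study also used H3K27ac of these same 6 libraries to class part of them as direct targets. The copy used here held 30 genes, fewer than the study's own list. Its 6 regions had a median change of 0.01, and that of NOTCH3 was lower and 0 were higher, in limma also at an unadjusted p under 0.05. The region with the highest value in this list was at GSTP1 (0.62, limma adjusted p = 0.262).

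Transcription factors of the lung and foregut lineage had the most regions of any list, 32 at 11 genes. KLF6 had 5 regions, KLF5, FOXQ1 and ID2 4 each, and KLF4 and TBX3 3 each. A single region was lower and 0 were higher in limma, with a median change of 0.07, and 4 and 2 were so at an unadjusted p under 0.05. With the replicate block 3 were lower and 1 higher, against 5.94% and 6.72% of all intergenic enhancer regions. The lower one lay 7954 bp downstream of the start of CEBPA, which encodes C/EBP alpha, at 62.6, 47.8 and 56.9 in control siRNA lists and 20.5 and 17.4 in NRF2 siRNA lists 2 and 3. Its change was -1.03 (SE 0.24, limma adjusted p = 0.0448), and with any 1 library left out the adjusted p was between 0.0601 and 0.148. Further from CEBPA a second region had the lowest value of the list, -1.13, and did not pass the threshold (limma adjusted p = 0.101, and 0.0123 with the replicate block). The highest value was 0.79 at a region 30881 bp upstream of FOXA2 (limma adjusted p = 0.244, and 0.0294 with the block). The region downstream of FOXA1 changed by -0.04.

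Of 7 regions near AP-1 and early response genes, 0 were lower and 0 higher in limma, with a median change of -0.25. At an unadjusted p under 0.05 in limma 2 were lower and 0 higher, and with the replicate block 1 was lower. The lowest was 47435 bp upstream of FOS at -0.92 (limma adjusted p = 0.110, and 0.0355 with the block). Of 22 regions near cytokine and NF-kB feedback genes, that upstream of IL1A, interleukin 1 alpha, was lower and a region downstream of TNFAIP2 higher, with a median change of 0.08. With the replicate block 1 was lower and 2 were higher, the second, outside the naming rule and chosen after its values were seen, being 42670 bp downstream of the PTGS2 start (change 0.97, limma adjusted p = 0.0791, and 0.0229 with the block). At an unadjusted p under 0.05, 3 were lower and 3 higher. The IL1A region stood at 41.6, 53.1 and 54.0 in control siRNA and 11.6 and 26.8 in NRF2 siRNA lists 2 and 3 (change -0.88, limma adjusted p = 0.0365). With 1 library left out its limma adjusted p ran from 0.0410 to 0.170 and was under 0.05 in 1 of 6 fits, and it was 0.0668 with the trend and robust options. The TNFAIP2 region stood at 2.17 and 29.3 in control siRNA lists 2 and 3 and at 1.67, 60.1 and 62.9 in NRF2 siRNA lists (change 1.15, limma adjusted p = 0.0237), so its percentile in NRF2 siRNA library 1 was as low as in the controls. The 3 regions upstream of CXCL8, interleukin 8, changed by 0.23 to 0.53 without passing the threshold.

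Of 12 regions near epithelial and mesenchymal genes, 0 were lower and 2 higher, that of KRT19 among them, with a median change of 0.33. Of the 12, 3 had a negative change, and at an unadjusted p under 0.05 in limma 0 were lower and 3 higher. The lowest was at SNAI1 (-0.41, limma adjusted p = 0.606), and the region 2525 bp upstream of CDH1, E-cadherin, changed by 0.00. Of 12 regions near p53 and growth arrest genes, 1 was lower, 5568 bp upstream of GADD45B, with percentiles of 44.4, 62.7 and 61.2 in control siRNA and 22.2 and 20.7 in NRF2 siRNA lists 2 and 3 and a change of -1.02 (limma adjusted p = 0.0270). The highest of this list was 0.63 at BTG2 (limma adjusted p = 0.126), and the 2 regions upstream of CDKN1A changed by -0.39 and 0.11. The 2 regions near ATF4 and one-carbon genes, at DDIT4 and CHAC1, changed by 0.09 and -0.13, neither past an unadjusted p of 0.05 in limma.

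Calls were nearest to 189 genes, of which 11 had 2 or more. FAT1, which encodes an atypical cadherin, had 7 regions, of which 0 were called in limma and 0 passed an unadjusted p of 0.05, with changes from -0.27 to 0.50. A further 12 genes had 6 regions each, of which ZCCHC2 had 3 lower and FAM50B 1. At ZCCHC2 the 3 lower regions lay between 61059 and 96743 bp upstream of the start and fell by 1.26, 1.16 and 0.90, while the other 3 changed by -0.14, 0.24 and 0.49. AKR1B15, BAMBI and KCNE4 had 2 lower regions each, and FST, BICD1, P2RY2 and SLC22A16 had 2 higher regions each.

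At 3 genes, ASAP1, STC1 and CDKN3, neighbouring regions moved in opposite directions. For CDKN3, a phosphatase of the cell cycle, a region 58494 bp upstream at 66.4, 82.2 and 77.5 in control siRNA lists stood at 22.3 and 21.7 in NRF2 siRNA lists 2 and 3 and fell by 1.55 (limma adjusted p = 0.00954). The region 82765 bp upstream was not called in control siRNA library 1, stood at 27.6 and 53 in control lists 2 and 3 and at 44.5, 65.0 and 76.3 in NRF2 siRNA lists, and rose by 1.06 (limma adjusted p = 0.0472), with percentiles that overlapped between the groups. At STC1, the gene of stanniocalcin 1, 2 regions rose by 1.24 and 0.95 and 1 fell by 1.30. At ASAP1, a regulator of ARF GTPases, 1 rose by 0.99 and 1 fell by 1.57.

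The start of the nearest gene was then examined, a readout the rule did not use. Of the 126 lower regions, 66 had a start region of the nearest gene in the test, and 49 of these 66 (74.2%) had a negative change, with a median of -0.17. Beside the higher regions 18 of 36 start regions (50%) had a negative change (median 0.01), and beside regions not called 1102 of 1825 (60.4%; median -0.07). Of the start regions beside lower members 1 passed the threshold, that of NR0B1 (change -1.12, limma adjusted p = 0.0294), against 0 beside higher members. The start of GCLM changed by -0.80 (limma adjusted p = 0.0619), that of AKR1B15 by -0.54 (0.148), that of GPC1 by 0.29 (0.590) and that of TBC1D14 by -0.04 (0.943). Over all 1927 regions with a tested start the 2 changes correlated weakly (Pearson r = 0.156, Spearman rho = 0.145, description only, since both come from the same libraries and regions of 1 gene share its start).

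Motifs were counted in the regions, a property the rule did not use. The antioxidant response element, spelled TGACTCAGC or TGAGTCAGC on either strand, was found in the central 1000 bases of 47 of 126 lower regions (37.3%), 4 of 76 higher regions (5.26%) and 253 of 3636 regions not called (6.96%). All 3838 regions held it in 7.92% of cases, the 32649 regions tested that lie on assembled chromosomes in 7.28%, intronic regions in 7.62% and regions holding a coding start in 2.37%. Searched over their whole width, 50.8% of lower, 6.58% of higher and 12.9% of other regions held it. With the block, the shares in the central 1000 bases were 28.1% of 228 lower and 5.81% of 258 higher regions. Among 35116 RefSeq promoters of GRCh38, windows of 300 bases, 0.977% held it. The looser core was counted as TGACNNNGC on either strand, which covers only the first spelling of the element. It was found in 66.7% of lower, 22.4% of higher and 35.3% of other regions.

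**Figure D4:**
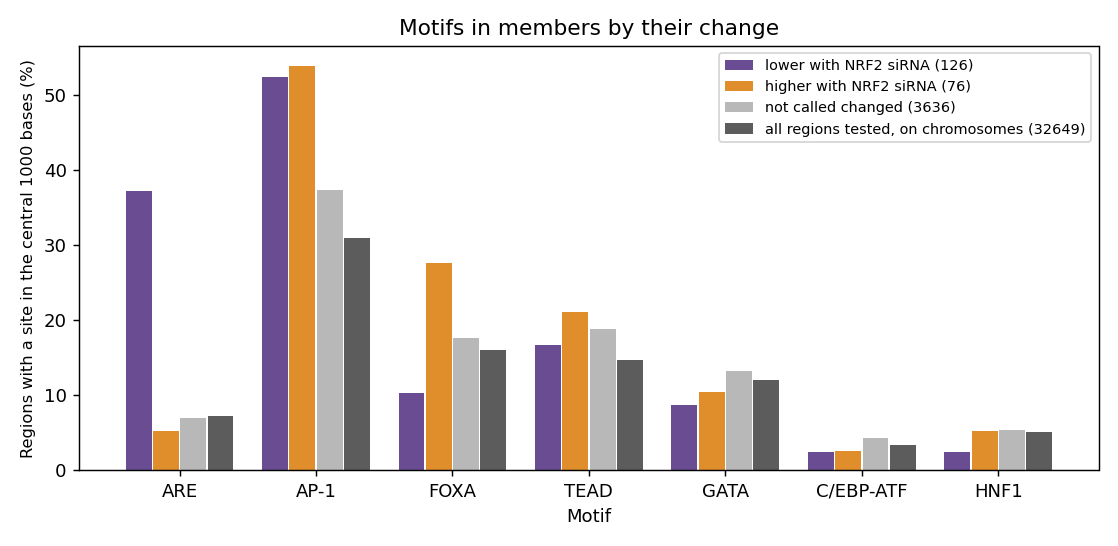
Percent of regions with each motif, on either strand, in the central 1000 bases, for the 126 lower, 76 higher and 3636 uncalled intergenic enhancer regions and for all regions tested. The antioxidant response element (ARE) stands at 37.3% in lower regions and at 5.26 to 7.28% in the other 3 groups, AP-1 is similar in lower and higher regions, and FOXA is highest in higher regions.

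Read from the element, 304 of the 3838 regions held it in the center. Of these, 47 (15.5%) were lower and 4 (1.32%) higher, against 79 (2.24%) and 72 (2.04%) of the 3534 without it. The median change was -0.15 with the element and 0.09 without. In pairs 1, 2 and 3 it was -0.14, -0.18 and -0.18 against 0.25, 0.09 and 0.13. Here the 0.25 is again the tied value of regions that replicate 1 did not call. A negative change was seen in 56.6% of regions with the element and 42.4% of those without, so 43.4% of regions with the full element did not lose rank. The lower share of regions with the element was 14.5% under 10 kb, 15.6% at 10 to 25 kb, 15.8% at 25 to 50 kb and 15.6% at 50 to 100 kb. It was lower where all 6 libraries called the region, 6 of 119 (5.04%), against 26 of 1488 (1.75%) without the element. There, where no region has a tied rank of its own, the median change was 0.03 with the element and 0.11 without. These scores also came from ranks over all regions tested. With the replicate block, 64 of 304 were lower and 15 higher.

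**Figure D5:**
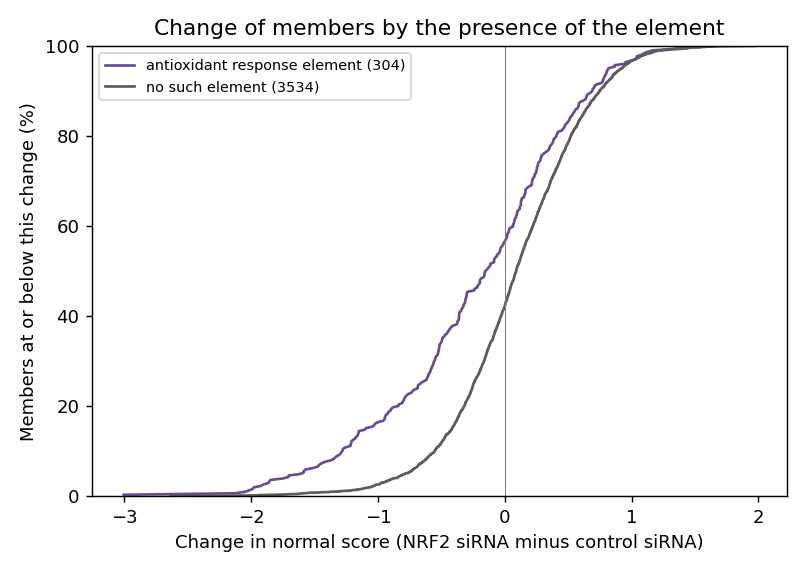
Cumulative percent of intergenic enhancer regions (vertical) at or below a given change in normal score (horizontal, NRF2 siRNA minus control siRNA) for the 304 regions with an antioxidant response element in their central 1000 bases and the 3534 without. The curve with the element lies above the other over most of the range, with 56.6% against 42.4% of regions below 0.

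The 4 largest falls with the element are printed above, those of GPC1, SPAG16, SPATA31E1 and BTC. Several of the largest falls did not hold it in their central 1000 bases, among them CD300LG, AKR1B15, EEIG1, IQGAP2 and NR0B1, and of the 4 lower regions of the canonical list 0 did. The NOTCH3 and ALDH1A1 regions held a full element, but outside their central 1000 bases. The most elements, 7, were in the region 78847 bp upstream of ZNF469, where they recur every 46 bases in the GRCh37 sequence as copies of 1 unit, of which the printed line shows a copy with the next element. This region stood at 98.4, 99.8 and 99.5 in control siRNA and 75.3, 79.2 and 85.7 in NRF2 siRNA lists and fell by 1.62 (SE 0.23, limma adjusted p = 0.0102). How reads were placed in this repeat was not tested. In the center, 3 regions held 3 or more elements, that of ZNF469 among them, while 22 held 2 and 279 held 1.

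The AP-1 motif TGAGTCA lies inside every full element, so the 2 were also counted apart. It was found in 52.4% of lower, 53.9% of higher and 37.4% of other regions, and in 31.0% of all regions tested. Outside an antioxidant response element it remained in 23% of lower, 52.6% of higher and 32.9% of other regions. Regions that rose thus held AP-1 sites about as often as those that fell, but as sites without the flanking bases of the longer element.

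The FOXA motif TGTTTAC, bound by the pioneer factors of foregut epithelium, had its highest share in regions that rose. It was found in 10.3% of lower, 27.6% of higher and 17.6% of other regions, and in 16.0% of all regions tested. With the replicate block the shares were 15.4% of lower and 22.5% of higher regions. Of the 673 regions that held it 13 (1.93%) were lower and 21 (3.12%) higher, against 113 (3.57%) and 55 (1.74%) of the 3165 without it, but the median change was 0.07 and 0.08 and did not separate them. The TEAD motif ACATTCC (16.7, 21.1 and 18.9%), the GATA motif AGATAAG (8.73, 10.5 and 13.2%) and the HNF1 motif GTTAATNAT (2.38, 5.26 and 5.39%) varied less between lower, higher and other regions. The C/EBP site TTGCGCAA was found in 8 of 3838 regions and in 0 of the called ones, and TGATGCAA, bound by C/EBP and ATF proteins together, in 2.38, 2.63 and 4.35%. A motif match is a description of the letters and not a site of binding, which was not measured here.

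Of the 5 regions with the highest mean percentile, 4 were near YWHAZ, KPNA3, RPS6KA3 and LITAF, with control means from 99.3 to 99.8 and NRF2 siRNA means from 99.2 to 99.5. Their scores changed by -0.26, 0.04, 0.10 and 0.12, none past the threshold in limma. The changes of single regions were shared between pairs to differing degrees, with Pearson r = 0.463 for pair 1 with pair 2, 0.482 for pair 1 with pair 3 and 0.660 for pair 2 with pair 3. The last 2 pairs have siRNA 30 and the flow cell identifier in common. These r values are over 3838 regions, which are not independent replicates.

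Regions just inside and just outside the limits of the rule were set side by side for distance and width. The 158 regions at 90 to 100 kb had a median change of 0.15 and a median percentile of 43.9, and the 139 just outside, at 100 to 110 kb, 0.12 and 50.8. The 53 regions of 9 to 10 kb had 0.14 and 90.6, and the 40 of 10 to 11 kb 0.01 and 90.1. The limit on calls cannot be read in this way. The 536 regions called in 3 libraries of both groups had a median change of 0.26 with 0 lower and 0 higher. Just outside, 69 of 192 regions called in 3 control siRNA and no NRF2 siRNA library were lower, and 25 of 78 with the reverse calls were higher. Their choice set these directions, because a library without a call gave the lowest rank. A further 2961 regions called in 1 or 2 libraries were not in the fit.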

How the data were processed

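H3K27ac was measured in 3 control siRNA and 3 NRF2 siRNA libraries of A549 cells. The authors aligned reads to hg19 with Bowtie2 (2.2.6, per the submitters' processing notes), called broad peaks in each library with MACS2 (2.1.0.20151222) and removed blacklisted regions. For each peak, the deposited lists hold its position, an integer score, a ratio (fold enrichment over local background) and the −log10 of its p-value and q-value. Fold enrichment served for ranks and percentiles within a list, the q-value only for a stricter alternative, and the score not at all. The files hold no read counts, so no counting interval is given. The read totals that the study states are lower in both libraries of replicate 1 than in the others and entered no calculation. Which input served as background is not given in the sources used here. Depth can change which regions are called, so fold values were never compared between lists.

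Peaks sharing at least 1 base were merged. Genes and starts came from GENCODE v44 lifted to GRCh37. All 24 chromosomes with peaks matched that sequence and 136 of 202238 peaks lay on other contigs. Normal scores of within-library ranks were compared with limma 3.58.1 (lmFit, eBayes, two-sided) in R 4.3.3 over 32673 regions, with Benjamini-Hochberg adjustment at 0.05. This comparison was first tested on simulated data. Other steps used Python 3.11.15, pandas 2.3.3, scipy 1.17.1 and pysam 0.24.0. Deviations from the group means correlated in libraries of the same number (r = 0.398, 0.199 and 0.363), and the numbers come from the sample titles, so these pair the libraries.

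Named regions were the 10 largest falls and rises past the threshold that moved alike in all pairs, the 5 largest each way among those called in 6 libraries, the NOTCH3 region, the 5 highest percentiles, the genes with most regions, and the called, or else the extreme, regions of each gene list. Some genes that this rule names are not reported here. All listed genes but 1 canonical NRF2 and 1 cytokine gene were found in the annotation. The regions, lists and motifs were chosen with earlier results of these data known. Alternatives were the replicate block, equal list lengths (23885 peaks), a q-value of at most 1e-05, merging within 500 bp, regions called in all 6 libraries, eBayes with trend and robust options, barring only coding genes, and leaving out each library.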

Additional observations from a re-analysis of the deposited data

Results flagged for a closer look

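The siRNA 28 pair (replicate 1) went the opposite way from both siRNA 30 pairs (replicates 2 and 3) in 4 measures, given as NRF2 siRNA minus control siRNA in pairs 1, 2 and 3. The share of all 3838 regions called changed by -14.9, 0.782 and 1.54 percentage points. At 10 to 25 kb from a coding start it changed by -16.1, 1.40 and 0.540 points, and at 50 to 100 kb by -11.6, 2.66 and 1.67 points. The median percentile at 50 to 100 kb changed by -2.66, 3.82 and 0.727. The differences between pairs were not tested, since siRNA 28 has 1 pair. List length moved with the share of all regions called in pairs 1 and 2 and against it in pair 3: the NRF2 siRNA list was shorter in pair 1 (23885 against 27941 peaks), longer in pair 2 (34986 against 34747) and shorter in pair 3 (39108 against 41571). Its part in the shares was not tested, and siRNA, batch and depth cannot be told apart.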

How the results depend on the processing

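Numbers of called regions depended most on the processing. Without the replicate block 126 were lower and 76 higher, and with it 228 and 258. Further settings moved these counts by over 1.5 times, but most also changed the number of regions from 3838. Equal list lengths gave 128 higher of 2238, and with the block 248 higher. A q-value of at most 1e-05 gave 42 and 39 of 1615, and regions called in all 6 libraries 50 lower of 1607. The eBayes fit with trend and robust options gave 155 higher of 3838, and barring only coding genes 117 higher of 6037. Counts from sets of different size cannot be compared as shares. With 1 library left out, lower calls ran from 0 to 147 and higher calls from 0 to 133. Both were 0 without control siRNA replicate 2 or 3, where all regions tested also gave 0. The fewest lower calls above 0 were 17, without NRF2 siRNA replicate 2, and the cause was not tested. In limma 372 and 371 regions were lower at an unadjusted p under 0.05 in the 2 fits with 0. The difference in the share called ran from -13.9 to 10.4 points, positive without NRF2 siRNA replicate 1 (10.4), and that in the median percentile from -2.42 to 3.58, with 2.2 at equal list lengths. The share with an antioxidant response element was 14% over whole regions, as more bases are searched. Values far from the threshold changed sign with a library left out: RPS6KA3 (-0.147 to 0.424), DDIT4 (-0.084 to 0.20), BACH2 (-0.089 to 0.367), SNAI1 (-0.691 to 0.122), KPNA3 (-0.144 to 0.229) and CHAC1 (-0.348 to 0.022). The block moved CEBPA at 27285 bp, FOS and FOXA2 past the threshold and changed no other call named by the rule. The fit with block and equal lists and values over pairs 2 and 3 alone (median change 0.11, share called 1.16 points) were chosen after seeing the data. The lower depth of replicate 1, by the study's read totals, limits any reading of regions that its libraries did not call.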
